A study of Homo sapiens with 12 samples.

Results

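Vimentin, the transcription factors that drive epithelial-mesenchymal transition (EMT) and the cadherins that mark its ends were followed across 4 treatment groups of MDA-MB-231 cells. The set was chosen by name: VIM, SNAI1, SNAI2, ZEB1, ZEB2, TWIST1, TWIST2, CDH1 and CDH2, looked up among the 16384 gene symbols of the count tables. Of these 9 genes, 8 had a row, and TWIST1 was not analysed here. In all, 5 of the 8 passed the expression filter that 12645 genes passed (VIM, SNAI1, SNAI2, ZEB1 and ZEB2). TWIST2, CDH1 and CDH2 did not pass it and lay near the floor of detection.

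MDA-MB-231 is an established human line from a triple-negative breast cancer, labelled WT in genotype in all 12 libraries. Poly(A) RNA was sequenced in 3 libraries for each of 4 treatments: DMSO, the vehicle, CAR at 10 µmol/L, JQ1 (JQ-1 in the labels) at 25 µmol/L, and Combination, which received both agents. CAR stands for cardamonin in the series title, a plant chalcone, and JQ1 is a small molecule that displaces BET bromodomain proteins from acetylated histones. The labels give no treatment time, nor do they say whether replicates are separate cultures. The p-values then reflect the variation among these libraries alone, and that variation may be technical.

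In EMT an epithelial cell loosens its junctions, gives up the adhesion molecule E-cadherin (CDH1) and takes on a motile, fibroblast-like shape. The zinc-finger proteins of the SNAI and ZEB families and the helix-loop-helix TWIST proteins bind E-boxes, short DNA elements in promoters such as that of CDH1, and bring in corepressors that silence the gene. Mesenchymal cells hold filaments of vimentin (VIM) and often N-cadherin (CDH2), and MDA-MB-231 is widely used as a line that already lies toward this end.

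Total counts ran from 17449715 to 19754456 per library. Levels are given as normalised CPM, the count scaled to CPM with the library total times its TMM factor (0.92 to 1.08), so a level is a share of the poly(A) RNA and not an amount per cell. In bulk samples fewer cells that hold a transcript and less of it per cell cannot be told apart. DMSO replicate 3 stood apart from the other DMSO libraries in a trend with transcript length: Spearman's rho over genes was -0.736 there, 0.605 and 0.651 in DMSO replicates 1 and 2, and -0.279 to 0.258 in the 9 libraries with a drug. Each library was set against the others of its group, so the values of replicates 1 and 2 partly mirror that of replicate 3. The members followed that trend: ZEB1, ZEB2, CDH1 and CDH2, with 4448 to 13357 bases of exon, had their lowest DMSO level in this library, and VIM, SNAI1 and SNAI2, with 1686 to 2428 bases, their highest. Combination replicate 1 held 1429 counts of albumin (ALB), a liver transcript, against 4 to 10 in the other libraries. Oestrogen receptor (ESR1) had 0 to 9 counts per library and progesterone receptor (PGR) 0 to 13, both low. Of the 7 fibroblast markers with a row, 5 had at most 3 counts in any library, DCN and LUM among them. The summed level of that list, mostly COL1A1, ranged from 7.97 to 8.90 CPM with DMSO and from 5.31 to 6.47 with CAR. It ranged from 3.04 to 4.37 with JQ1 and from 3.07 to 3.34 with Combination. Of 7 leukocyte markers 5 had a row, and their summed level was 124.5 to 134.3 CPM in DMSO, 197.3 to 203.5 with CAR, 90.4 to 96.4 with JQ1 and 149.2 to 167.6 with Combination. Nearly all of it was CD68, a lysosomal protein that tumour cells can also express, while PTPRC had 0 or 1 count, CD14 2 to 14, and LYZ and ITGAM at most 3. The part of either list in the results was not tested.

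Vimentin was by far the most abundant member, and JQ1 lowered it while CAR alone did not. VIM encodes the intermediate filament protein of mesenchymal cells and lies on chromosome 10 from 17228259 to 17237593 on the plus strand (GRCh38), with 9 exons. The DNA just before its start is shown because VIM had the highest level of the members and responded to JQ1. RefSeq (GRCh38.p14) places the 250 bases before the start at chr10:17227991-17228240 on the plus strand, and capitals mark a GC box (GGGCGG), the element bound by SP family factors, whose first base is 46 bases before the start.
VIM: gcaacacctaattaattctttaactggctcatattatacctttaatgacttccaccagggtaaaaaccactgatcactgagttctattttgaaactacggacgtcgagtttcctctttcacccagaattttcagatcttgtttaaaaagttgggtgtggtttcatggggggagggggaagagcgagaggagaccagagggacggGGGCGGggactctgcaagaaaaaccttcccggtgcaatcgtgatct
A GC box on either strand is present in 42.6% of the 35116 annotated promoter windows of this length. No E-box (CANNTG) was found in this window, where 61.8% of all windows hold at least 1. Its GC content was 46%, against a median of 58% over all windows.

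In DMSO, VIM stood at 2073, 2056 and 2199 normalised CPM in replicates 1, 2 and 3. With CAR the 3 libraries gave 2144, 2151 and 2152. These 2 groups overlapped, and the fitted change was 0.03 ± 0.04 on the log2 scale (SE; adjusted p = 0.566 in the edgeR quasi-likelihood test, Benjamini-Hochberg), with a 95% interval of -0.05 to 0.11. The sign turned under total count scaling (-0.04) and under an upper-quartile scale (-0.01), and without DMSO replicate 3 the gene passed as higher (0.06, adjusted p = 0.0453). With JQ1 the level was 870.2, 891.8 and 896.2, and with both agents 527.8, 567.2 and 583.9. Every JQ1 library lay below every DMSO and CAR library, and every Combination library lay below every JQ1 library. VIM fell 2.38-fold with JQ1 (log2 -1.25 ± 0.04, adjusted p = 6.44e-18), 3.77-fold with Combination against DMSO (-1.91 ± 0.04, adjusted p = 6.47e-21) and 1.58-fold with Combination against JQ1 (-0.66 ± 0.04, adjusted p = 7.56e-12). Leaving out any 1 library kept the last of these between -0.69 and -0.62.

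**Figure D1:**
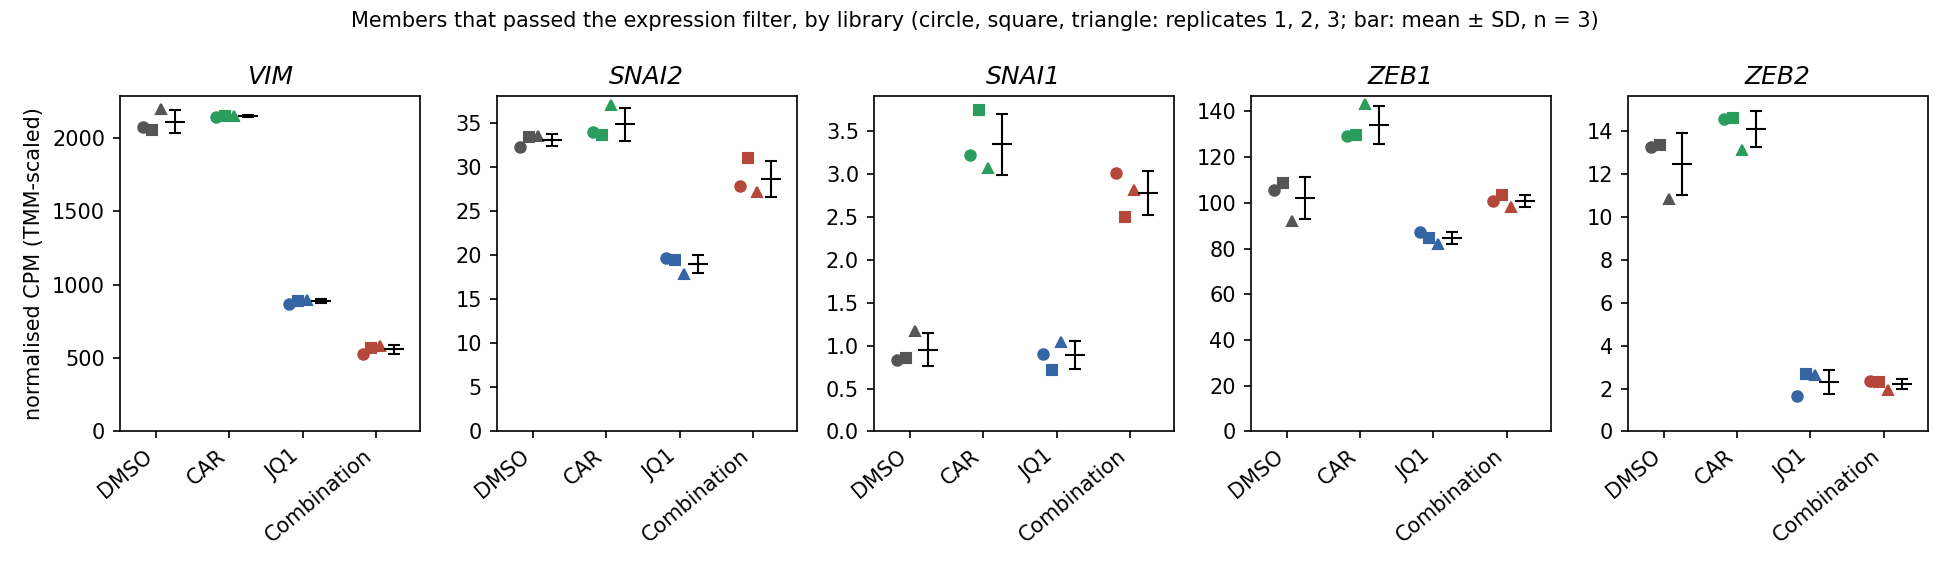
Normalised CPM (vertical axis, each panel from 0) of the 5 members that passed the filter in the 3 libraries of DMSO, CAR, JQ1 and Combination; symbols are libraries, and the bar beside them is the mean ± SD (n = 3). VIM and ZEB2 were low in both groups that received JQ1, SNAI1 was high in both groups that received CAR, and SNAI2 and ZEB1 were lowest in JQ1.

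The change of VIM with CAR differed with JQ1 present. Its log2 change was 0.03 without JQ1 and -0.66 with it. The difference between these, the interaction, was -0.69 ± 0.05 (adjusted p = 5.37e-09 in the edgeR quasi-likelihood test, Benjamini-Hochberg). Across the 12645 genes tested, 38.3% passed for the interaction, and of the 5 members tested 2 did. The other was SNAI2, in the opposite direction.

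SNAI2, also known as SLUG, fell with JQ1, and fell less when CAR was given with JQ1. SNAI2 encodes a zinc-finger repressor of E-cadherin and lies on chromosome 8 from 48917604 to 48921740 on the minus strand, with 3 exons. The level was 32.3, 33.4 and 33.5 normalised CPM in DMSO and 33.9, 33.7 and 37.1 in CAR. JQ1 gave 19.7, 19.4 and 17.8, and Combination 27.8, 31.0 and 27.2. The JQ1 libraries lay below all others, and the Combination libraries lay between those of JQ1 and those of DMSO with no overlap. SNAI2 fell 1.74-fold with JQ1 (log2 -0.80 ± 0.07, adjusted p = 2.49e-10) and 1.15-fold with Combination against DMSO (-0.20 ± 0.06, adjusted p = 0.00517). Combination was 1.51-fold above JQ1 (0.59 ± 0.07, adjusted p = 3.26e-07) and 1.21-fold below CAR (-0.28 ± 0.06, adjusted p = 0.000301). CAR alone gave 0.08 ± 0.06 (adjusted p = 0.286, 95% interval -0.05 to 0.20), although its 3 libraries all lay just above those of DMSO. The interaction was 0.52 ± 0.09 (adjusted p = 0.000152), that is, CAR's change was larger by that amount on the log2 scale when JQ1 was present.

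SNAI1, or SNAIL, rose with CAR whether or not JQ1 was given, and no change with JQ1 alone passed the test. SNAI1 encodes the founding zinc-finger repressor of E-cadherin and lies on chromosome 20 from 49982999 to 49988886 on the plus strand, with 3 exons. Its counts were low in every group, so raw counts are given. There were 17, 16 and 24 reads in DMSO and 65, 73 and 59 in CAR. JQ1 libraries held 17, 13 and 18, and Combination libraries 51, 43 and 48. All 6 libraries with CAR lay above all 6 without it. In normalised CPM the libraries without CAR had means of 0.954 ± 0.190 (DMSO) and 0.891 ± 0.166 (JQ1), and those with it 3.34 ± 0.36 (CAR) and 2.77 ± 0.26 (Combination; SD, n = 3). SNAI1 rose 3.48-fold with CAR (log2 1.80 ± 0.20, adjusted p = 1.03e-07), 2.88-fold with Combination against DMSO (1.53 ± 0.21, adjusted p = 5.13e-07) and 3.1-fold with Combination against JQ1 (1.63 ± 0.21, adjusted p = 1.69e-06). The rise with CAR was large for that comparison, where 0.8% of all genes tested had a larger absolute log2 change. JQ1 alone gave -0.11 ± 0.26 (adjusted p = 0.723), with an interval from -0.64 to 0.43, and its sign turned without DMSO replicate 3 (0.08). Combination against CAR was -0.27 ± 0.16 (adjusted p = 0.129) although the libraries did not overlap, and it passed with total count scaling (-0.41, adjusted p = 0.0246). No difference in CAR's effect with and without JQ1 was detectable for SNAI1 (interaction -0.16 ± 0.31, adjusted p = 0.721), within an interval of -0.81 to 0.48.

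ZEB1 moved in smaller steps, up with CAR and down with JQ1. ZEB1 encodes a zinc-finger homeodomain repressor that holds epithelial genes and the miR-200 family down, and it lies on chromosome 10 from 31318495 to 31529814 on the plus strand. DMSO libraries stood at 105.6, 108.8 and 91.9 normalised CPM and CAR libraries at 129.0, 129.6 and 143.4. JQ1 libraries gave 87.4, 84.7 and 82.2, and Combination libraries 100.7, 103.6 and 98.2. CAR lay above every other group and JQ1 below every other group, while Combination and DMSO overlapped. The rise with CAR was 1.31-fold (log2 0.39 ± 0.06, adjusted p = 3.74e-06) and the fall with JQ1 1.2-fold (-0.27 ± 0.06, adjusted p = 0.000188). Combination was 1.19-fold above JQ1 (0.25 ± 0.06, adjusted p = 0.000977) and 1.33-fold below CAR (-0.41 ± 0.06, adjusted p = 6.01e-07). Against DMSO, Combination gave -0.02 ± 0.06 (adjusted p = 0.778), with an interval of -0.13 to 0.10, but with total count scaling it passed as lower (-0.22, adjusted p = 0.000731).

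ZEB2, the close relative of ZEB1 with the same DNA-binding design, had the largest fall with JQ1 of the 5 members tested, and its change with CAR passed in none of the fits run. It lies on chromosome 2 from 144364364 to 144524583 on the minus strand. Its RefSeq promoter window is shown beside that of VIM because both genes fell with JQ1. The window covers chr2:144520120-144520369 on the minus strand, written 5′ to 3′ along the gene, and capitals mark the 1 E-box (CACATG), whose first base is 180 bases before the RefSeq start. That start lies inside the gene span given above, downstream of its 5′ end at 144524583, so the window does not precede the outermost annotated start.
ZEB2: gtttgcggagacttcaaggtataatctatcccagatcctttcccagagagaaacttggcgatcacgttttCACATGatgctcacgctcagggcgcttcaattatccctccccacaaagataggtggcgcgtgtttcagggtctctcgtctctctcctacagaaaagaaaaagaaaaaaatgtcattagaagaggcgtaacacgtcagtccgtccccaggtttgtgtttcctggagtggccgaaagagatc
No GC box was found in it, and neither this window nor that of VIM holds the E-box CAGGTG that SNAI and ZEB proteins are known to favour, which 17.5% of all windows hold on either strand. CAGGTG and its reverse are among the letters that CANNTG covers. The GC content of the ZEB2 window was 48%. RefSeq windows were found for 5 of the 9 genes. ZEB1 has 7 annotated starts and CDH2 has 2, so no single window stands for either, and in ZEB1 2 of the 7 windows hold CAGGTG or its reverse.

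In DMSO the level of ZEB2 was 13.2, 13.3 and 10.8 normalised CPM, and in CAR 14.5, 14.6 and 13.1. JQ1 brought it to 1.65, 2.65 and 2.62, and Combination to 2.36, 2.33 and 1.93. All 6 libraries with JQ1 lay far below all 6 without it, while CAR overlapped DMSO and Combination overlapped JQ1. ZEB2 fell 5.4-fold with JQ1 (log2 -2.43 ± 0.14, adjusted p = 3.91e-13) and 5.62-fold with Combination against DMSO (-2.49 ± 0.14, adjusted p = 3.46e-13). CAR gave 0.18 ± 0.10 alone (adjusted p = 0.129, interval -0.03 to 0.39) and -0.06 ± 0.20 on top of JQ1 (adjusted p = 0.83, interval -0.48 to 0.36). Of all genes tested, 7.2% had a larger absolute log2 change with JQ1. That share was 22.0% for VIM, 39.0% for SNAI2, 75.5% for ZEB1 and 89.7% for SNAI1.

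**Figure D2:**
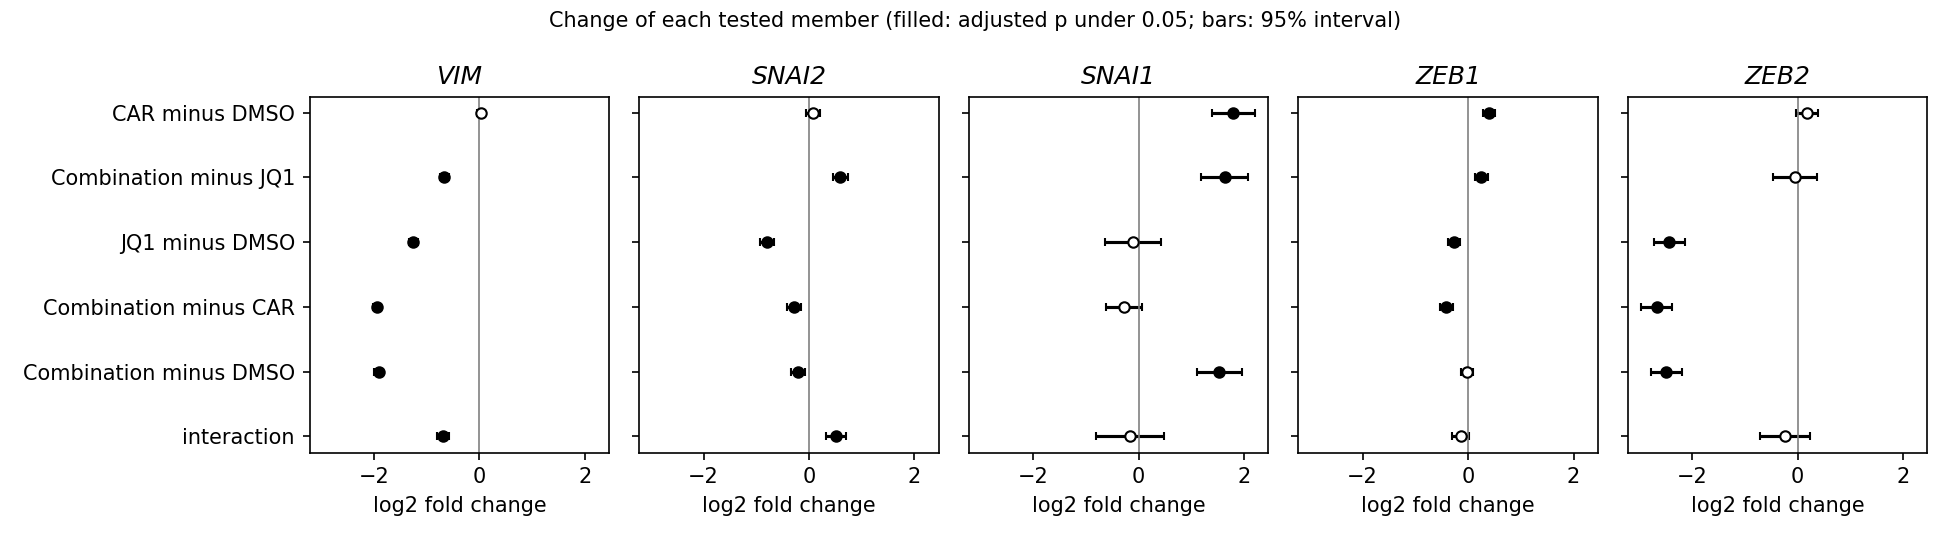
Log2 fold change (horizontal axis) of the 5 tested members in the 5 comparisons between groups and the interaction (rows), with 95% intervals; filled points had an adjusted p under 0.05. Combination minus JQ1 and CAR minus DMSO, the first rows, both give the change with CAR, and they differ for VIM (-0.66 and 0.03) and SNAI2 (0.59 and 0.08).

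Counted over the 5 tested members, CAR against DMSO gave 2 higher and 0 lower, beside 57.3% of all genes that passed in either direction. JQ1 against DMSO gave 0 higher and 4 lower, beside 83.7%, and Combination against DMSO gave 1 higher and 3 lower, beside 85.4%. Combination against JQ1 gave 3 higher and 1 lower, beside 51.9%, and Combination against CAR gave 0 higher and 4 lower, beside 85.4%. By direction, 27.3% of all genes were higher and 30.1% lower with CAR, and 41.5% and 42.2% with JQ1, each against DMSO. The shares were 42.6% and 42.8% for Combination against DMSO, 26% and 25.9% against JQ1, and 42.4% and 43% against CAR. With 5 members tested, the counts of members are given as a description. Over all genes tested, the libraries of both groups did not overlap in 59.9% with CAR, 83.2% with JQ1 and 84.8% with Combination, each against DMSO. The share was 62.3% for Combination against JQ1 and 87.4% for Combination against CAR. The first 3 of these comparisons share the DMSO libraries, and each pair that names the same group shares its libraries too. Without DMSO replicate 3, CDH1 passed the filter as well, through DMSO libraries alone, and CDH2 through CAR libraries alone. Of 7 tested members CAR against DMSO then gave 3 higher and 1 lower, JQ1 0 and 6, and Combination 1 and 5. Of the 12727 genes tested in that fit, 7827 passed with CAR (3724 higher, 4103 lower), 10722 with JQ1 (5351 and 5371) and 10914 with Combination (5480 and 5434). The members counted as lower include CDH1 in each comparison, and CDH2 with JQ1 and Combination. CDH1 entered only through the group where it was high, and both genes lie near the floor. Their calls are therefore no separate support for a fall of the members. Under total count scaling the median of all genes moved to -0.127 for JQ1, -0.205 for Combination against DMSO and -0.152 for Combination against CAR. The share of called genes that were higher then went from 47.6% to 35.7% for CAR, from 49.9% to 39.3% for Combination against DMSO and from 50.1% to 32.9% for Combination against JQ1.

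Levels of different genes can be compared only per length. As normalised CPM per kilobase of exon, VIM led in every group (1130 ± 42.0 for DMSO, 1150 ± 2.34 for CAR, 474 ± 7.44 for JQ1, 299.6 ± 15.4 for Combination; SD, n = 3). By this measure VIM ranked 13 among 15944 genes in each DMSO library and 111 to 118 in the Combination libraries. ZEB1 came next and SNAI2 after it in every group, and their values did not overlap within a group. In DMSO they stood at 15.9 ± 1.40 and 13.6 ± 0.27. The following places changed hands: ZEB2 (0.932 ± 0.107) lay above SNAI1 (0.566 ± 0.113) in DMSO, whereas SNAI1 lay above ZEB2 in CAR (1.98 ± 0.21 and 1.05 ± 0.06), JQ1 (0.528 ± 0.098 and 0.173 ± 0.042) and Combination (1.65 ± 0.15 and 0.165 ± 0.018). Within each of these groups the libraries of the 2 genes did not overlap. CDH1, CDH2 and TWIST2 filled the last places, and neighbours among them overlapped except CDH2 with TWIST2 in DMSO and CDH2 with CDH1 in CAR.

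**Figure D3:**
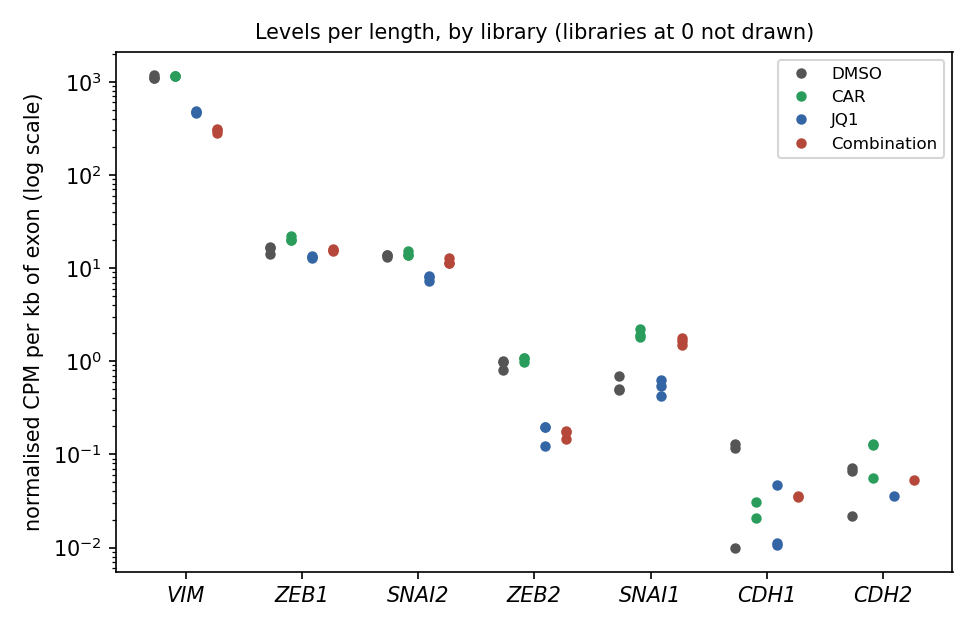
Normalised CPM per kilobase of exon (vertical axis, log scale) of 7 members in each library, coloured by group; libraries with 0 counts are not drawn. VIM lies far above the rest in all groups, and ZEB2 lies above SNAI1 in DMSO and below it in the other 3.

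The balance within each family differed between treatments. Per kilobase, SNAI2 exceeded SNAI1 by a ratio of 24.6 ± 4.2 in DMSO and 15.2 ± 3.5 in JQ1, and by 7.31 ± 1.07 in CAR and 7.25 ± 1.20 in Combination (SD, n = 3). No library without CAR (lowest 11.8) reached down to those with it (highest 8.62). ZEB1 exceeded ZEB2 by 17.1 ± 0.5 in DMSO and 19.9 ± 2.5 in CAR, and by 80.4 ± 25.4 in JQ1 and 95.5 ± 8.9 in Combination. Libraries with JQ1 (lowest 65.1) lay above all those without it (highest 22.7).

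Across the 12 libraries, VIM and ZEB2 followed each other most closely among the tested members (Pearson's r of log2 CPM 0.949), and VIM and SNAI1 least (-0.074). These are descriptions over 12 libraries that share 4 treatments, so most of each r comes from the group means. Over the genes tested with at least 5 CPM, the pattern most like that of VIM was that of RBMX, an RNA-binding protein (r = 0.999), which had means of 212 and 219 CPM in DMSO and CAR, 76.3 in JQ1 and 44.2 in Combination. PSMB8, a subunit of the immunoproteasome, and RGS3 came next (0.998 each). For SNAI1 the nearest were FTSJ3 (0.984), ZPR1 and the transketolase gene TKT, which had 418 and 408 CPM without CAR and 646 and 621 with it. SNAI2 was followed most closely by HMGA1, an architectural chromatin protein (0.985), with means of 849 CPM in JQ1 and 1790 in Combination against 2170 in DMSO and 2420 in CAR. RRAGD and TTC9C came next. ZEB1 was nearest to the fatty acid elongase ELOVL5 (0.983), SEC24D and TMEM209, and ZEB2 to LONRF3 (0.996), NME6 and the centrosomal protein CEP57.

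The 3 remaining members lay near the count floor, taken as 3 counts, which is 0.147 to 0.177 normalised CPM in a library. E-cadherin (CDH1), the junction protein whose loss defines EMT, had 13, 11 and 1 reads in DMSO. CAR libraries held 0, 3 and 2, JQ1 libraries 1, 1 and 4, and Combination libraries 3, 3 and 0. Of the 12 libraries, 9 were at or under 3 counts, and the groups overlapped because DMSO replicate 3 was as low as the treated libraries. Summed over each group, CAR held 0.202 of the DMSO level (95% exact counting interval 0.0605 to 0.538), JQ1 0.265 (0.0888 to 0.661) and Combination 0.279 (0.0936 to 0.697). These intervals cover counting error only. In a fit with no filter CDH1 fell with CAR by a log2 value of -2.22 ± 0.84 (adjusted p = 0.0349 in the edgeR quasi-likelihood test, Benjamini-Hochberg) and JQ1 (-1.85 ± 0.82, adjusted p = 0.0483), and Combination did not pass (-1.78 ± 0.82, adjusted p = 0.057). Without DMSO replicate 3 the values were -2.76, -2.39 and -2.32, and all 3 passed (adjusted p = 0.00039, 0.000793 and 0.00111). The interaction passed as well in that fit (2.83 ± 1.19, adjusted p = 0.0466) but not when Combination replicate 1 was left out too (2.44 ± 1.43, adjusted p = 0.166). With no filter and without DMSO replicate 3 it did not pass either (2.82 ± 1.24, adjusted p = 0.0625). In the filtered fits CDH1 passed the filter only through DMSO replicates 1 and 2, the group where it was high. Its calls there are therefore no separate support for a fall. With CAR, JQ1 and Combination all near the floor, a further fall with the second agent could not be seen. No conclusion on how the agents act together on CDH1 is drawn from the interaction.

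N-cadherin (CDH2), which mesenchymal cells often carry in place of E-cadherin, had 6, 6 and 2 reads in DMSO and 5, 11 and 11 in CAR. JQ1 libraries held 3, 0 and 0, and Combination libraries 4, 0 and 0. All 4 reads of the Combination group came from replicate 1, the library with liver transcripts, and the part of those transcripts in the 4 reads was not tested. A count of 0 allows up to 0.174 and 0.176 CPM in the other Combination libraries. Over the groups, CAR held 1.95 times the DMSO level with a counting interval of 0.987 to 4.02, and JQ1 held 0.236 times (0.0435 to 0.846). With no filter, CDH2 was lower in Combination than in CAR (log2 -2.46 ± 0.83, adjusted p = 0.0092), where the libraries did not overlap. With DMSO replicate 3 and Combination replicate 1 both left out the value was -6.12 ± 1.38 and passed as well (adjusted p = 6.72e-05). With DMSO replicate 3 alone left out it was -2.45 ± 0.73. In these filtered fits CDH2 passed the filter only through CAR replicates 2 and 3, the group where it was high. Those calls are therefore no separate support. With both left out, the remaining Combination libraries are at 0, with a floor of 0.0875 CPM for 3 counts over both. The CAR level, from 27 reads (0.458 CPM), was 5.24 times that floor, with the counting error of the CAR reads not included. Against DMSO, JQ1 did not pass with all libraries (-1.96 ± 0.98, adjusted p = 0.0812) and passed without DMSO replicate 3 (-2.33 ± 0.92, adjusted p = 0.0184). CDH2 with CAR did not pass in either fit (0.95 ± 0.64, adjusted p = 0.253, and 0.57 ± 0.59, adjusted p = 0.408).

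TWIST2, a helix-loop-helix factor of mesenchyme, had 1 read in CAR replicate 3 and 0 in the other libraries. At the floor of 3 counts over the 3 libraries of a group, a count of 0 allows up to 0.0504 CPM in DMSO, 0.0555 in JQ1 and 0.0586 in Combination. In the fit with no filter its change with CAR did not pass (adjusted p = 0.471), and both other comparisons with DMSO set groups of 0 counts against each other. Where the counting settings are not given, reads of antisense genes cannot be told apart from those of VIM, ZEB1, ZEB2, CDH1 and CDH2, each of which has an annotated antisense partner. SNAI1 and ZEB2 also have a processed pseudogene elsewhere in the genome.

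**Figure D4:**
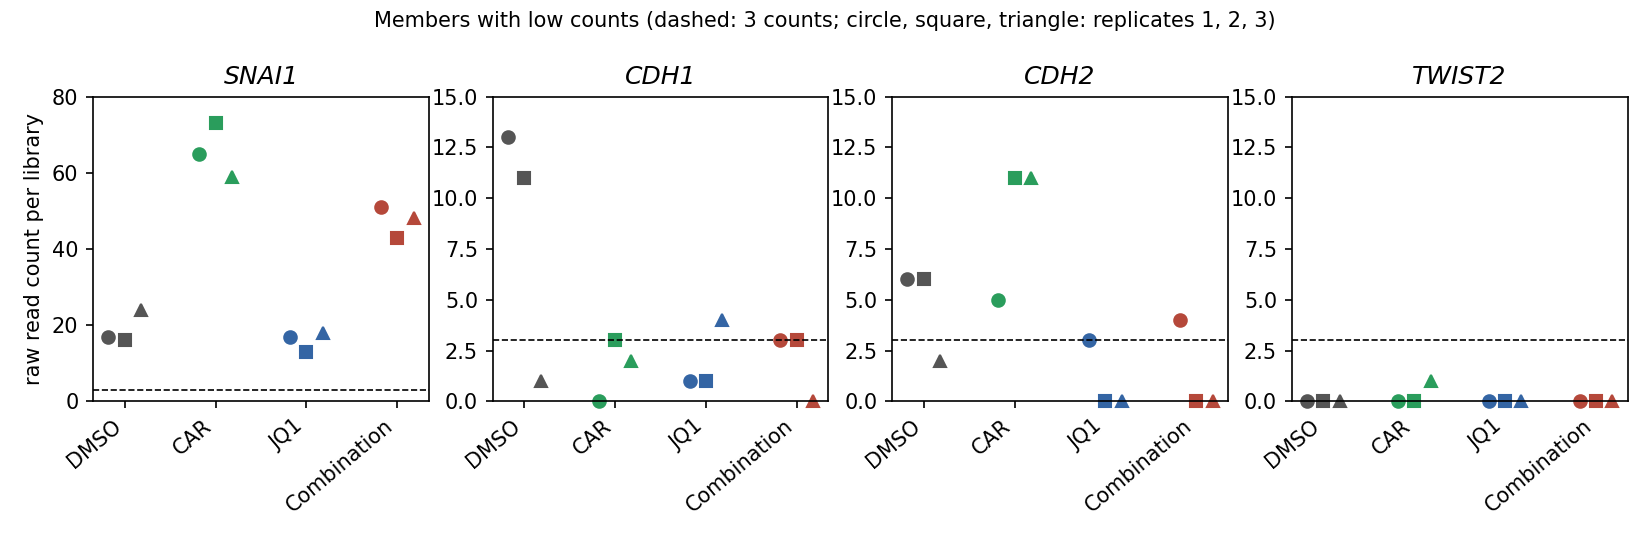
Raw read counts per library (vertical axis; SNAI1 on its own scale) of SNAI1, which passed the filter, and of CDH1, CDH2 and TWIST2, which did not; the dashed line is 3 counts. SNAI1 is well above the line in all 12 libraries, and TWIST2 is at or under it in all 12.

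The partners and targets of these factors were read from lists chosen by function. Their counts stand beside those of all genes tested, of which 41.5% were higher and 42.2% lower with JQ1, and 42.6% and 42.8% with Combination against DMSO. With CAR against DMSO 27.3% of all genes were higher and 30.1% lower. Helix-loop-helix partners and other EMT factors gave 5 higher and 7 lower of 13 tested with JQ1, and 4 and 7 with Combination, all against DMSO. TCF3, which encodes the E proteins that pair with TWIST, fell 2.27-fold with JQ1, from 89.3 ± 1.3 to 39.4 ± 1.0 CPM. Among the ID genes, whose products sequester E proteins, the rule for naming took ID2 and ID3, and both rose with JQ1. ID2 went from 0.661 ± 0.255 to 15.1 ± 1.2 CPM (22.7-fold) and ID3 from 5.27 ± 1.15 to 191 ± 4.4 CPM. SOX9 fell 3.17-fold with Combination, from 120.9 ± 1.3 in DMSO to 38.1 ± 0.5 CPM. With CAR the list had 2 higher and 7 lower, and without DMSO replicate 3 it had 2 and 5.

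The list labelled corepressors of SNAI, ZEB and TWIST proteins also holds cofactors of other kinds, NSD2 among them. It gave 7 higher and 10 lower of 22 with JQ1 and 5 and 12 with Combination. The histone methyltransferase genes NSD2 and SUV39H1 fell 3.69-fold and 6.41-fold with JQ1, and the DNA methyltransferase gene DNMT1 2.01-fold. HDAC1, a histone deacetylase, rose 1.53-fold with JQ1 and was at 122.2 ± 3.3 CPM in DMSO and 121.9 ± 2.9 in Combination. With total count scaling HDAC1 passed as lower in Combination against DMSO (log2 -0.21, adjusted p = 0.000152 in the edgeR quasi-likelihood test). KDM1A, the lysine demethylase that SNAI1 binds, rose 1.26-fold with Combination. CTBP1, which ZEB proteins bind, rose 1.21-fold with Combination, a call lost with total count scaling (log2 0.06, adjusted p = 0.132).

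Genes for the turnover of these proteins gave 11 higher and 7 lower of 21 with JQ1 and 11 and 5 with Combination. With total count scaling the majority turned in Combination (8 higher and 9 lower, median log2 -0.06 in place of 0.15). FBXW7 (2.43-fold) and STUB1 (2.27-fold), both of ubiquitin ligases, rose with JQ1, and SPSB3, an adaptor of a ligase for SNAI1, rose 1.87-fold with Combination. PAK1, a kinase known to phosphorylate SNAI1, fell 2.46-fold with JQ1 and 4.1-fold with Combination. The ligase gene MDM2 fell 1.47-fold and 1.55-fold.

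Other mesenchymal genes gave 3 higher and 16 lower of 22 with JQ1 (median log2 -1.02, against -0.01 over all genes) and 2 higher and 19 lower with Combination (-1.18, against 0.00). NT5E, the surface enzyme CD73, fell 4.02-fold with JQ1 (623.4 ± 23.5 to 155.1 ± 4.8 CPM), and LOX, a collagen crosslinker, 3.91-fold. With Combination CALD1, an actin-binding protein, fell 3.64-fold and COL5A1 4.85-fold. PDGFRB rose 3.1-fold with JQ1 (31.2 ± 1.6 to 96.5 ± 0.5 CPM), FSTL1 1.48-fold, and CCN2 1.75-fold with Combination. With CAR the list gave 4 higher and 13 lower (median -0.25, against -0.02 over all genes), beside 27.3% higher and 30.1% lower over all genes.

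**Figure D5:**
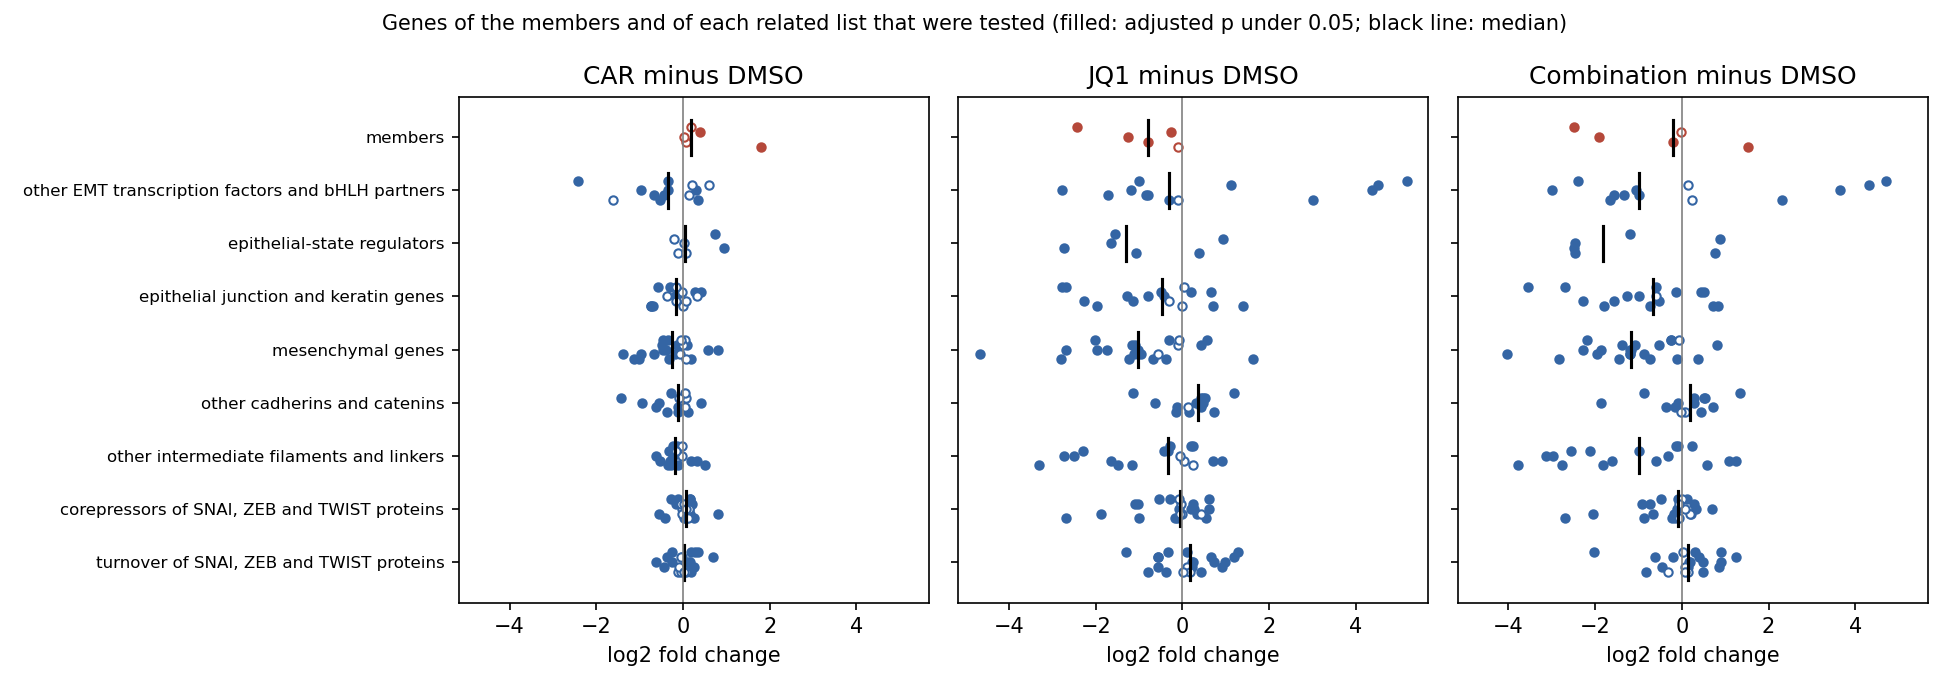
Log2 fold change (horizontal axis) of each tested gene of the members and of 8 related lists (rows) against DMSO with CAR, JQ1 and Combination; filled points had an adjusted p under 0.05, and the black line is the median. The median of the mesenchymal list was -1.02 with JQ1 and -1.18 with Combination, and ID2 and ID3 lie at the far right of the second row in both.

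Epithelial junction and keratin genes, the class these factors repress, gave 4 higher and 9 lower of 16 with JQ1 (median log2 -0.46), beside 42.2% lower over all genes, and 4 and 11 with Combination (-0.67), beside 42.8%. Without DMSO replicate 3 the counts were 5 and 8, and 4 and 9. CLDN7, a tight junction claudin, fell from 13.1 ± 0.2 to 1.89 ± 0.11 CPM with JQ1 (6.9-fold), desmoplakin (DSP) 3.91-fold, and plakophilin 3 (PKP3) 6.51-fold with Combination. LLGL2, a polarity protein, rose 2.64-fold with JQ1, occludin (OCLN) 1.59-fold, and CLDN4 rose 1.37-fold with Combination. Regulators of the epithelial state gave 2 higher and 4 lower of 6 in both comparisons, with ESRP2, a splicing factor, down 6.63-fold, GATA3 3.15-fold and KLF4 2.92-fold with JQ1, and KLF5 up 1.31-fold. Of the 14 regulators listed, the other 8 were not tested.

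Relatives of VIM and of the cadherins were mixed. Other intermediate filament and linker genes gave 4 higher and 10 lower of 17 with JQ1 and 4 and 13 with Combination. Lamin B1 (LMNB1) fell 9.97-fold with JQ1, lamin B2 (LMNB2) 3.13-fold and KRT80 5.69-fold, while FLNA, an actin crosslinker that binds vimentin, rose 1.89-fold and synemin (SYNM), which assembles with vimentin, 1.64-fold. KRT7 fell 6.74-fold with Combination. Other cadherins and catenins gave 9 higher and 4 lower of 14 with JQ1 and 7 and 5 with Combination. With total count scaling the Combination count turned to 6 higher and 7 lower (median log2 -0.03 in place of 0.18). CDH4 fell 2.21-fold with JQ1 (158.6 ± 11.9 to 71.8 ± 1.3 CPM) and CDH11 1.54-fold, while afadin (AFDN) rose 1.65-fold and NECTIN1 2.27-fold. KRT8, KRT18 and KRT19 belong to both the keratin and the filament list and are counted in each.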

How the data were processed

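The authors deposited 1 table of whole-number read counts per gene symbol and library, with no normalization, per the file contents. Trimmomatic, HISAT2, HTSeq and the build hg38 appear in the submitters' processing notes. For versions, annotation and strand setting nothing is given in the sources used here. Per the labels' protocols, RNA with an integrity number of at least 7 was used with a stranded mRNA kit. From the counts, edgeR 4.0.16 (R 4.3.3) filtered genes with filterByExpr (minimum count 10, minimum total 15), scaled with TMM and fitted a robust quasi-likelihood model to 12 libraries with 1 coefficient per group (8 residual degrees of freedom). P-values were adjusted by Benjamini-Hochberg over the 12645 genes tested, and called under 0.05. The interaction is Combination minus CAR minus JQ1 plus DMSO. SEs are of log2 fold changes, and folds are stated with their direction. Positions and exon lengths came from GENCODE release 29 and matched 15944 symbols (97.3%). Intervals of counts are exact 95% ones.

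The members and lists were chosen with earlier results of these data known. All members are named. Of each list, the text names genes among up to 3 called ones with the smallest adjusted p in JQ1 and in Combination against DMSO, at 5 CPM or more in the group where it was higher, and up to 2 that moved against the majority of the list. A gene that the rule took is not reported here, though it stayed in the counts. Pattern likeness is Pearson's r of log2 CPM with a prior count of 2. The fit was tested on simulated data. Alternatives were DESeq2 1.42.0, other scalings, no filter, a length and GC correction, a replicate block, only the groups compared, and each library left out. The fit with no filter and without DMSO replicate 3 was chosen after seeing the data.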

Additional observations from a re-analysis of the deposited data

Results flagged for a closer look

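The effect of CAR on VIM differed between cells with and without JQ1 by a test of the difference itself. The interaction was -0.69 on the log2 scale (adjusted p = 5.37e-09 in the edgeR quasi-likelihood test, Benjamini-Hochberg), and it ran from -0.73 to -0.65 over 22 alternatives, all of which passed. All 3 Combination libraries lay below all 3 JQ1 libraries, whereas CAR and DMSO libraries overlapped.

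For SNAI2 the same test gave 0.52 (adjusted p = 0.000152), with a range of 0.45 to 0.56 over 22 alternatives, all of which passed. All 3 Combination libraries lay above all 3 JQ1 libraries. VIM and SNAI2 thus moved in opposite directions when CAR was added to JQ1, each against a change with CAR alone that did not pass in the fit to all libraries.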

How the results depend on the processing

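Members called in CAR against DMSO went from 2 to 4 without DMSO replicate 3 (2 to 4 over all libraries left out in turn), with Combination replicate 1 left out too (4), and with no filter and without DMSO replicate 3 (4), since VIM (0.06, 0.06 and 0.07) and CDH1 were then called. In the filtered fits CDH1 passed the filter through DMSO libraries alone, so its call there is no separate support for a fall. Over all genes 7250 of 12645 passed in the main fit and 7827 of 12727 without DMSO replicate 3. Signs turned for values that had not passed. VIM with CAR went from 0.03 to -0.04 (total count scaling) and -0.01 (upper quartile). SNAI1 with JQ1 went from -0.11 to 0.08 without DMSO replicate 3, 0.03 without JQ1 replicate 2, 0.07 without both libraries that stood apart and 0.08 with no filter and without DMSO replicate 3 (-0.23 to 0.08 over libraries left out). ZEB1 with Combination went from -0.02 to 0.00 without DMSO replicate 1, 0.03 without DMSO replicate 2 and 0.00 without Combination replicate 3 (-0.08 to 0.03). ZEB2 in Combination against JQ1 went from -0.06 to 0.06 and 0.04 without JQ1 replicate 2 or 3 and 0.03 without Combination replicate 3 (-0.26 to 0.06). The ZEB1 interaction passed after correction for length and GC (-0.14, adjusted p = 0.0354), also with the replicate block (0.0467). The causes were not tested. No called change of a tested member was lost under the alternatives run. Same-numbered libraries did not deviate together (correlations -0.045 to 0.056 over 18 pairs, and 2 of 12 libraries closest to their own number), so no pairing by number was detectable. The labels do not say whether the cultures were paired. The replicate block alone changed no member's call (VIM with JQ1 -1.25). Depth limits CDH1, CDH2 and TWIST2, and the intervals of SNAI1.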
